A study of Mus musculus with 1073 samples.

Results

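Imprinted genes were followed through the yolk sac from mesoderm to endothelium and blood. The set was a list of 40 genes known to be expressed mainly from 1 parental chromosome in the mouse, and 38 of the 40 are among the 15967 genes of the filtered tables. *Nap1l5* and *Rasgrf1* were counted before filtering only. Of the 38 genes, 18 are usually expressed from the maternal and 19 from the paternal chromosome, and *Gnas* gives transcripts from both. They lie in 17 imprinted regions.

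Imprinted expression is set by DNA methylation that differs between egg and sperm and is kept on 1 chromosome at an imprinting control region through the divisions of the embryo. Such regions often hold a long non-coding RNA beside protein-coding neighbours, as in the pairs *H19* and *Igf2* or *Airn* and *Igf2r*. Many of the coding genes act on growth. *Igf2* is a growth factor, *Igf2r* is a receptor that clears it, *Grb10* and *Cdkn1c* restrain growth signalling and the cell cycle, and *Phlda2* limits placental growth.

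Single cells of mouse yolk sac were sorted into 13 populations, caught 1 to a site in Fluidigm C1 chips, and sequenced from Nextera XT libraries. At E7.25 (neural plate) and E7.75 (early headfold), cells positive for GFP from the *Flk1* (*Kdr*) locus were taken from *Flk1*-GFP/+ embryos on a C57BL/6 background, and these are called mesoderm here. All later cells came from C57BL/6 embryos. Haematopoietic progenitors (HPC, which the labels call erythro-myeloid progenitors) were TER119-CDH5+CD41+ at E8.25 and E8.5 and TER119-CDH5-CD45+CD41low at E9.5 and E10.5. Stages follow the sample titles. The column names instead call the E8.25 HPC E8.5 PreHPC, and they give a later day than E7.25 for the E7.25 mesoderm. Primitive erythroid cells (EryP) were TER119+ without CD41 and CDH5, and at E10.5 also without CD45. Megakaryocytes (Mk) were TER119-CDH5-CD41+ at E8.5 and TER119-CDH5-CD45-CD41high at E10.5. Macrophages (Mac) were TER119-CDH5-CD41-CD45+ at E10.5, and endothelium (Endo) was TER119-CD41-CDH5+ at E8.5, with CD45 also negative at E10.5. Parents of different strains were not used, so the parental chromosome behind a transcript cannot be read from these cells.

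Levels are CPM, the read counts scaled to library size by the authors, and a gene was found in a cell at 1 count or more. Of 1073 captured cells, 926 passed the authors' filter, with 484539 to 5955450 counts each. The embryos or pools behind the cells are not named, so each population was treated as 1 sample and no test between populations was made. Intervals of shares are exact (Clopper-Pearson) 95% intervals and cover counting error only. Where no cell held a gene, the upper limit given is not this interval but 3 cells as a share of the cells of the population. The reads carry no molecular identifiers. A ratio is the difference of log2(mean CPM + 1), was taken where a gene reached a mean of 10 CPM in either population, and is called past 2-fold at 1 or more in size. It understates the change of genes with low levels. A change of a mean cannot tell fewer cells with a gene from less RNA per cell, so shares and medians over cells are given with it. One flow cell carried E7.25 together with E8.5 and E8.25, and the other carried the remaining stages, so a change of stage that crosses flow cells cannot be told apart from the run.

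The population labels were set beside marker genes. The 7 endothelial markers summed to a median of 2732 CPM in E8.5 Endo and 4783 CPM in E10.5 Endo. They were also present in the CDH5+ HPC, at 769 CPM at E8.25 and 467 CPM at E8.5, against 79.5 CPM at E9.5 and 85.7 CPM at E10.5. The cells labelled E8.5 Mk held both megakaryocyte and erythroid markers. Their 5 megakaryocyte markers summed to a median of 183.6 CPM, against 5331 CPM in E10.5 Mk. In the other E8.5 populations this sum was 96.1 CPM in HPC, 28.2 CPM in Endo and 4.13 CPM in EryP. The 4 erythroid markers summed to a median of 25178 CPM in E8.5 Mk, against 104266 CPM in E8.5 EryP and 135.5 CPM in E8.5 HPC. Of 25 captured E10.5 EryP cells 3 passed the filter, with a median of 518534 CPM of erythroid markers, so their means rest on 3 cells, which are given one by one for *H19*. Summed over the 38 genes, median levels were 6608 CPM in E7.25 and 7409 CPM in E7.75 mesoderm, and 10083 CPM in E8.5 and 15009 CPM in E10.5 Endo. In the blood populations with more than 3 cells they lay between 968 CPM in Mac and 3234 CPM in E8.25 HPC. The median number of these genes found per cell was 28 and 29 in mesoderm, 27 and 23 in Endo, and between 9 (Mac) and 22 (E8.25 HPC) in those blood populations.

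Of the 38 genes, 33 reached a mean of 10 CPM in at least 1 population and 31 did so without the 3 E10.5 EryP cells. *Zim1*, *Slc22a18*, *Gnas*, *Magel2* and *Nnat* stayed below 10 CPM in every population. Of the exon bases of *Gnas*, 21.96% overlap exons of other genes. This share is 34.14% for *Snrpn* and 27.27% for *Ube3a*, and other members overlap too. How reads on such bases were counted is not given in the sources used here. A low level of *Gnas* therefore need not mean low expression. Over the 12 populations without E10.5 EryP, 27 of the 31 genes had their highest mean in mesoderm or endothelium, 11 in mesoderm and 16 in endothelium. Of 12193 genes at this level, 39.75% had their highest mean in mesoderm or endothelium, 12.14% in mesoderm and 27.61% in endothelium. *Kcnq1ot1*, *Cd81*, *Ube3a*, *Impact* and *Commd1* were found in 50% of cells or more in each of these 12 populations. The map of mean levels shows both kinds of pattern, with broad genes along whole rows and others that fade from the mesodermal and endothelial columns to those of blood.

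**Figure D1:**
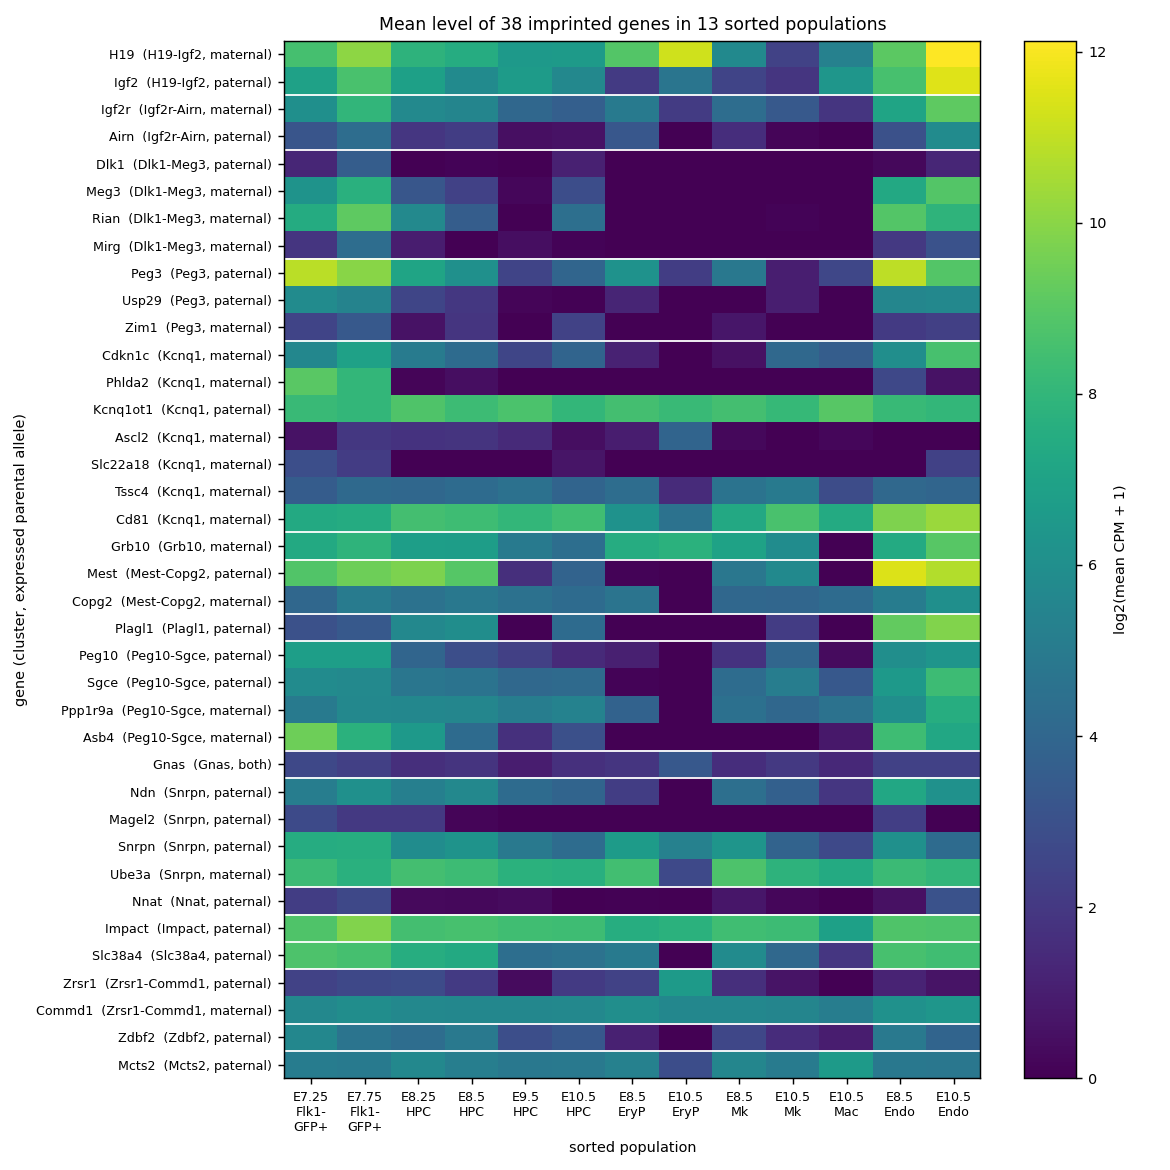
Mean level, as log2(mean CPM + 1), of the 38 imprinted genes of the filtered tables (rows, ordered by imprinted region, with the usually expressed parental chromosome) in the 13 sorted populations (columns). Of 31 genes that reached 10 CPM outside E10.5 EryP, 27 were highest in a mesodermal or endothelial column, and the E10.5 EryP column rests on 3 cells.

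*H19*, a maternally expressed non-coding RNA (chr7:142575529-142578143, minus strand, GRCm38), was found in every mesodermal and endothelial cell. Its mean was 371 CPM in E7.25 mesoderm (lowest 10.7, median 282, highest 1708), 1069.9 CPM in E7.75 mesoderm (lowest 48.3, median 813, highest 4697), 541 CPM in E8.5 Endo (lowest 36.3, median 483, highest 2259.9) and 4469 CPM in E10.5 Endo (lowest 32.7, median 3115, highest 18208). E10.5 Endo was the highest of these in mean and median, with a lowest cell below that of E8.5 Endo. In HPC the mean was 229 CPM at E8.25, 181.9 CPM at E8.5, 90.1 CPM at E9.5 and 95.8 CPM at E10.5, where 55 of 87 cells held it with a median of 0.861 CPM. The top 10% of these E10.5 cells carried 74.33% of its sum. *H19* was also high in primitive erythroid cells, with 476 CPM in E8.5 EryP (lowest 16.9, median 375, highest 2329.9), where 66 of 66 cells held it. The 3 E10.5 EryP cells held 2479, 675 and 4249 CPM. It was lowest in E10.5 Mk, at 4.32 CPM in 12 of 73 cells.

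*Igf2*, the paternally expressed growth factor next to *H19* (chr7:142650766-142666816, minus strand), had a mean of 123.3 CPM in E7.25 and 405 CPM in E7.75 mesoderm, 382 CPM in E8.5 Endo and 2991 CPM in E10.5 Endo (lowest 28.4, median 2349.9, highest 13989.7). Both genes were found together in 96.6% of E7.25 cells and in every cell of E7.75 mesoderm, E8.5 Endo and E10.5 Endo. The erythroid lineage differed in this. In E8.5 EryP, *Igf2* had a mean of 3.21 CPM and was found in 15 of 66 cells (22.7%, interval 13.3 to 34.7), and in no cell without *H19*. The remaining 51 cells (77.3%) held *H19* alone. Per kilobase of exon, the mean level of *H19* was 193.5 CPM and that of *Igf2* 0.562 CPM in E8.5 EryP, against 1817 and 523 CPM in E10.5 Endo. The endothelial markers summed to a median of 3.45 CPM in E8.5 EryP.

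In macrophages, more cells held *Igf2* than *H19*. *Igf2* was found in 21 of 25 cells with a mean of 82.7 CPM and a median of 2.44 CPM, and *H19* in 17 of 25 cells with a mean of 39.5 CPM and a median of 0.477 CPM. Per kilobase of exon, these means were 14.5 and 16.1 CPM. At E9.5, 23 HPC held both genes, 18 *H19* alone, 3 *Igf2* alone and 2 neither. At E10.5 these counts were 43, 12, 9 and 23 of 87 cells. In E10.5 Mk, 57 of 73 cells held neither. The plot of both genes in single cells shows mesodermal and endothelial cells with both, erythroid cells along the *H19* axis, and E10.5 HPC spread from 0 to high levels of both.

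**Figure D2:**
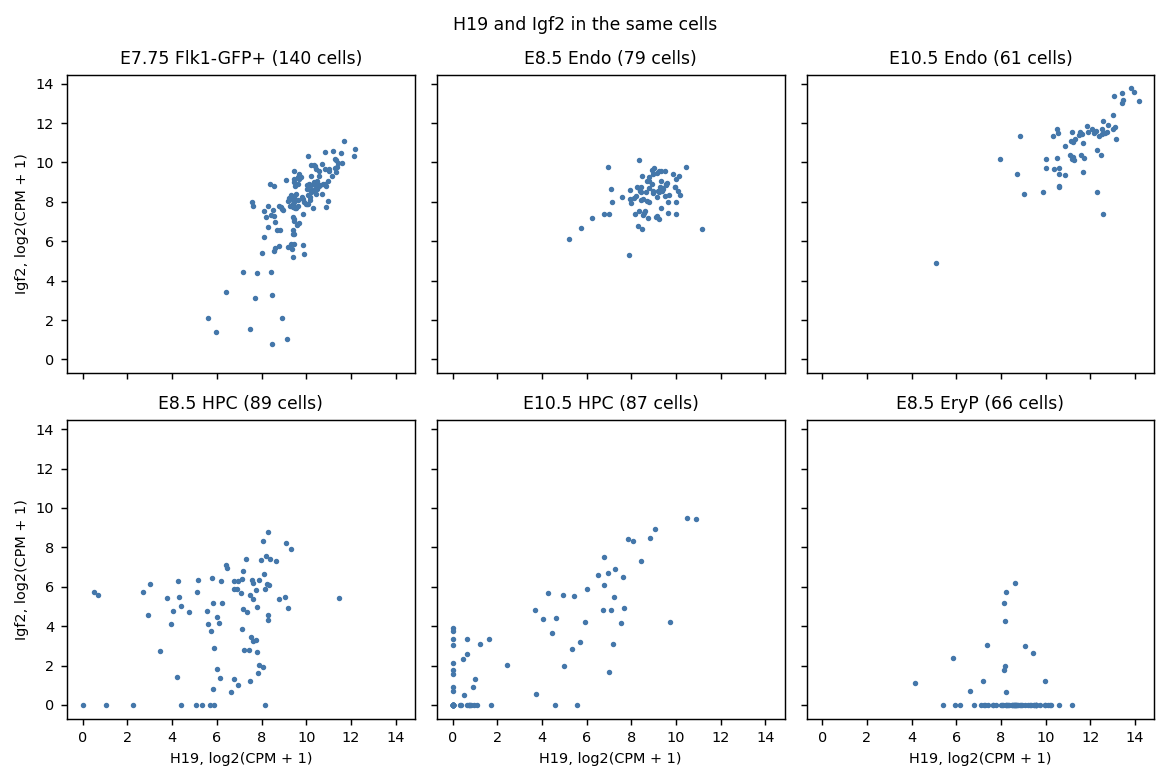
*H19* (horizontal axis) against *Igf2* (vertical axis), both as log2(CPM + 1), in single cells (points) of E7.75 *Flk1*-GFP+, E8.5 Endo, E10.5 Endo, E8.5 HPC, E10.5 HPC and E8.5 EryP. All 79 E8.5 Endo and 61 E10.5 Endo cells held both genes, and 51 of 66 E8.5 EryP cells held *H19* without *Igf2*.

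*Igf2r* (chr17:12682406-12769664, minus strand), which carries IGF2 to the lysosome and is maternally expressed, had means of 65.3 CPM in E7.25 and 254 CPM in E7.75 mesoderm, 132.3 CPM in E8.5 Endo and 554 CPM in E10.5 Endo (lowest 24.4, median 435, highest 1880.1). In HPC its mean was 52.1, 45.1, 15.4 and 11.8 CPM from E8.25 to E10.5, with 71 of 73, 88 of 89, 27 of 46 and 45 of 87 cells. *Airn* (chr17:12741311-12860136, plus strand), the paternally expressed antisense RNA that keeps the paternal *Igf2r* silent, was low, and its annotated exons share no base with those of *Igf2r*. At E7.25, 35.4% of cells held it (8.08 CPM), as did 79 of 140 E7.75 cells (19.1 CPM), 24 of 79 E8.5 Endo cells (6.99 CPM) and 33 of 61 E10.5 Endo cells (57.4 CPM), and its mean did not exceed 8.66 CPM in blood outside E10.5 EryP. *Grb10*, an adaptor that damps insulin and IGF receptor signalling, had another distribution. Its mean was 162.4 and 234 CPM in E7.25 and E7.75 mesoderm, 170.2 and 501 CPM in E8.5 and E10.5 Endo, and 178.7 CPM in E8.5 EryP, where 65 of 66 cells held it. In HPC it was 109.1 CPM at E8.25 (median 77.4), 31.1 CPM at E9.5 and 19.5 CPM at E10.5, and the median at E8.5 was 83.1 CPM. It was present in 0 of 25 Mac, so that a share of up to 12.0% is allowed.

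The *Dlk1*-*Meg3* region holds the paternally expressed Notch-like ligand *Dlk1* and the maternally expressed non-coding RNAs *Meg3*, *Rian* and *Mirg*, which host small nucleolar RNAs and microRNAs. *Meg3* (chr12:109541001-109571726, plus strand) had means of 74.0 and 206 CPM in E7.25 and E7.75 mesoderm and 157.9 and 464 CPM in E8.5 and E10.5 Endo, with medians of 34.4, 61.3, 101.5 and 109.96 CPM. The top 10% of the E10.5 Endo cells carried 71.7% of its sum. *Meg3* was found in 29 of 73 HPC at E8.25, 20 of 89 at E8.5, 2 of 46 at E9.5 and 11 of 87 at E10.5. No cell held it in E8.5 EryP, E8.5 Mk, E10.5 Mk and Mac, which allows shares of up to 4.55%, 8.11%, 4.11% and 12.0%. *Rian* was also highest in mesoderm and endothelium, with 177.9 and 547 CPM in E7.25 and E7.75 mesoderm and 465 and 235 CPM in E8.5 and E10.5 Endo. In HPC it was found in 50 of 73, 30 of 89, 0 of 46 and 12 of 87 cells from E8.25 to E10.5. *Mirg* reached 10 CPM only at E7.75 (18.9 CPM), where the top 10% of the cells carried 93.85% of its sum, and the 2 lanes of that population held 40.5 and 5.78 CPM.

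*Dlk1* itself reached 10 CPM only at E7.75 (10.8 CPM, lowest 0, median 3.71, highest 171.98), in 76.4% of cells. It was present in 32.0% of E7.25 mesoderm, 7 of 79 in E8.5 Endo, 6 of 61 in E10.5 Endo and 22 of 87 E10.5 HPC, where the mean was 1.16 CPM. The maternally expressed *Meg3* was found in every endothelial cell, so most of them held it without *Dlk1*. Exons of *Meg3* share 1228 bases with another annotated RNA (*Gm26906*).

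*Mest* and *Plagl1* had far higher means in endothelium than in most blood cells. *Mest*, a paternally expressed gene for a hydrolase-like protein (chr6:30723547-30748465, plus strand), had a mean of 455 and 704 CPM in E7.25 and E7.75 mesoderm, 2850.0 CPM in E8.5 Endo (lowest 121.5, median 2512, highest 5899) and 1694 CPM in E10.5 Endo (lowest 1.22, median 1693, highest 4155). HPC held 863 CPM at E8.25 (73 of 73 cells) and 494 CPM at E8.5 (85 of 89), but 2.15 CPM at E9.5 (5 of 46) and 13.7 CPM at E10.5 (12 of 87). It was also found in 19 of 37 E8.5 Mk (27.4 CPM) and 12 of 73 E10.5 Mk (52.7 CPM), and in 1 of 66 E8.5 EryP cells and 1 of 25 Mac. *Plagl1*, a paternally expressed zinc finger gene (chr10:13060504-13131694, plus strand), had a mean of 595 CPM in E8.5 Endo (median 195.1, 76 of 79 cells) and 898 CPM in E10.5 Endo (median 239, 61 of 61 cells). In mesoderm it had means of 7.14 and 9.43 CPM and was found in 9.52% and 17.1% of cells. In HPC it was found in 22 of 73 cells at E8.25, 35 of 89 at E8.5, 0 of 46 at E9.5 and 36 of 87 at E10.5, with means of 48.9, 61.4, 0 and 17.6 CPM. It was found in no EryP, E8.5 Mk or Mac.

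*Peg3*, a paternally expressed gene for a large zinc finger protein (chr7:6703892-6730431, minus strand), had high levels in mesoderm and early endothelium. Its mean was 1862 CPM in E7.25 mesoderm (lowest 109.2, median 1767, highest 6737), 1014 CPM in E7.75 mesoderm (lowest 0, median 890.2, highest 4491), 1903 CPM in E8.5 Endo (lowest 209.8, median 1699.6, highest 6913) and 469 CPM in E10.5 Endo (lowest 0, median 136.2, highest 3559.6). In HPC the mean was 135.8, 67.0, 4.61 and 14.5 CPM from E8.25 to E10.5. *Usp29*, a deubiquitinase gene that starts beside *Peg3* on the other strand, was at 57.1, 41.4, 46.2 and 49.6 CPM in the same 4 mesodermal and endothelial populations. In E10.5 Endo it was found in 20 of 61 cells and the top 10% carried 99.22% of its sum. *Zim1*, the maternally expressed neighbour, did not exceed 9.47 CPM.

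Promoter sequences are shown for the genes on which these contrasts turn. *Mest* and *Plagl1* were highest in endothelium, *Peg3* and *Meg3* were shared by mesoderm and endothelium, and *Phlda2*, described below, was nearly limited to mesoderm. Each is the 250 bases before a RefSeq start (GRCm38.p6), written 5′ to 3′ on the strand of the gene. Capitals mark TGCCGC or its reverse complement GCGGCA, the motif that the imprint-keeping protein ZFP57 binds when it is methylated. *Mest* and *Meg3* each have another RefSeq window that holds no match, and for these genes a window with the motif was chosen. The *Mest* window is chr6:30737800-30738049, plus strand. The *Plagl1* window is chr10:13090582-13090831, plus strand. The *Meg3* window is chr12:109540746-109540995, plus strand. The *Peg3* window is chr7:6730420-6730669, minus strand, and shares 163 bases with the window of *Usp29*. The *Phlda2* window is chr7:143502525-143502774, minus strand.
Mest: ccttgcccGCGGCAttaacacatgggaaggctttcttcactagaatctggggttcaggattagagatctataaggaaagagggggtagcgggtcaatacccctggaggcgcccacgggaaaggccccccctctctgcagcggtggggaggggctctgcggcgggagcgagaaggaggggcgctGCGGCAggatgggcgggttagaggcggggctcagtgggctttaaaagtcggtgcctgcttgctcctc
Plagl1: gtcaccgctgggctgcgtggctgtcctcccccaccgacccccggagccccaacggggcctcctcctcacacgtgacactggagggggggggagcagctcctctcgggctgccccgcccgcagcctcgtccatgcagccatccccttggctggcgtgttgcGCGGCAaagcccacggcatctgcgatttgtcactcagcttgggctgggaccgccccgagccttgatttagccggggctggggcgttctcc
Meg3: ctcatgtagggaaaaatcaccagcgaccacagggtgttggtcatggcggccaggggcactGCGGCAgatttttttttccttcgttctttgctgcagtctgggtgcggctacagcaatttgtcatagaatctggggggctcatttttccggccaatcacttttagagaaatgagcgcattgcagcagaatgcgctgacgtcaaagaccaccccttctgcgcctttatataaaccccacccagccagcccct
Peg3: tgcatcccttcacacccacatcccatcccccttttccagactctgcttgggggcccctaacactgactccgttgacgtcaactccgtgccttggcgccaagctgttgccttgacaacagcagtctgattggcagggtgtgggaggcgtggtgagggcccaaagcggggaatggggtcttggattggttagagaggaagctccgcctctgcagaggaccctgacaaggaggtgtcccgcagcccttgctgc
Phlda2: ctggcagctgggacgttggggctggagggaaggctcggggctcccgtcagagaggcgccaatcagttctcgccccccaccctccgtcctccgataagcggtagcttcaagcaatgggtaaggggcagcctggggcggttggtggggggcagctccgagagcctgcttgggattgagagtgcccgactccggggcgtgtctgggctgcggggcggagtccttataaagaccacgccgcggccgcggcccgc
The motif, on either strand, was present in a window of 8 of 35 imprinted genes with a RefSeq window (22.86%: *Copg2*, *Mcts2*, *Meg3*, *Mest*, *Nap1l5*, *Plagl1*, *Zdbf2* and *Zim1*), against 9.843% of 27025 genes. It was in 9 of 54 windows of the imprinted genes (16.67%) and in 8.676% of all 32851 windows. A gene with more than 1 start has more than 1 window, and the windows do not cover imprinting control regions elsewhere. The median number of CpG was 10 in the windows of imprinted genes and 6 in all windows. *Phlda2* and *Peg3* hold no match in the windows shown.

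The *Peg10*-*Sgce* region on chromosome 6 holds genes with unlike patterns. *Peg10*, a gene derived from a retroelement, was at 109.6 and 109.8 CPM in E7.25 and E7.75 mesoderm and at 1.69 CPM in E10.5 HPC. *Sgce*, which encodes a sarcoglycan, was highest in E10.5 Endo, at 312 CPM (median 99.7), against 91.5 CPM in E8.5 Endo (median 52.1), and lay between 16.3 and 26.2 CPM in HPC. *Asb4*, a maternally expressed subunit of a ubiquitin ligase, was at 692 CPM in E7.25 mesoderm (median 487), 210.4 CPM in E7.75 mesoderm, 331 CPM in E8.5 Endo and 152.1 CPM in E10.5 Endo. In HPC it went from 89.3 CPM at E8.25 (30 of 73 cells) to 17.6, 2.20 and 6.70 CPM, and it was found in no EryP or Mk cell. *Ppp1r9a*, a maternally expressed gene for an actin-binding protein, lay between 34.2 and 48.2 CPM in HPC and at 185.8 CPM in E10.5 Endo, where its median was 21.8 CPM against 46.4 CPM in E8.5 Endo.

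**Figure D3:**
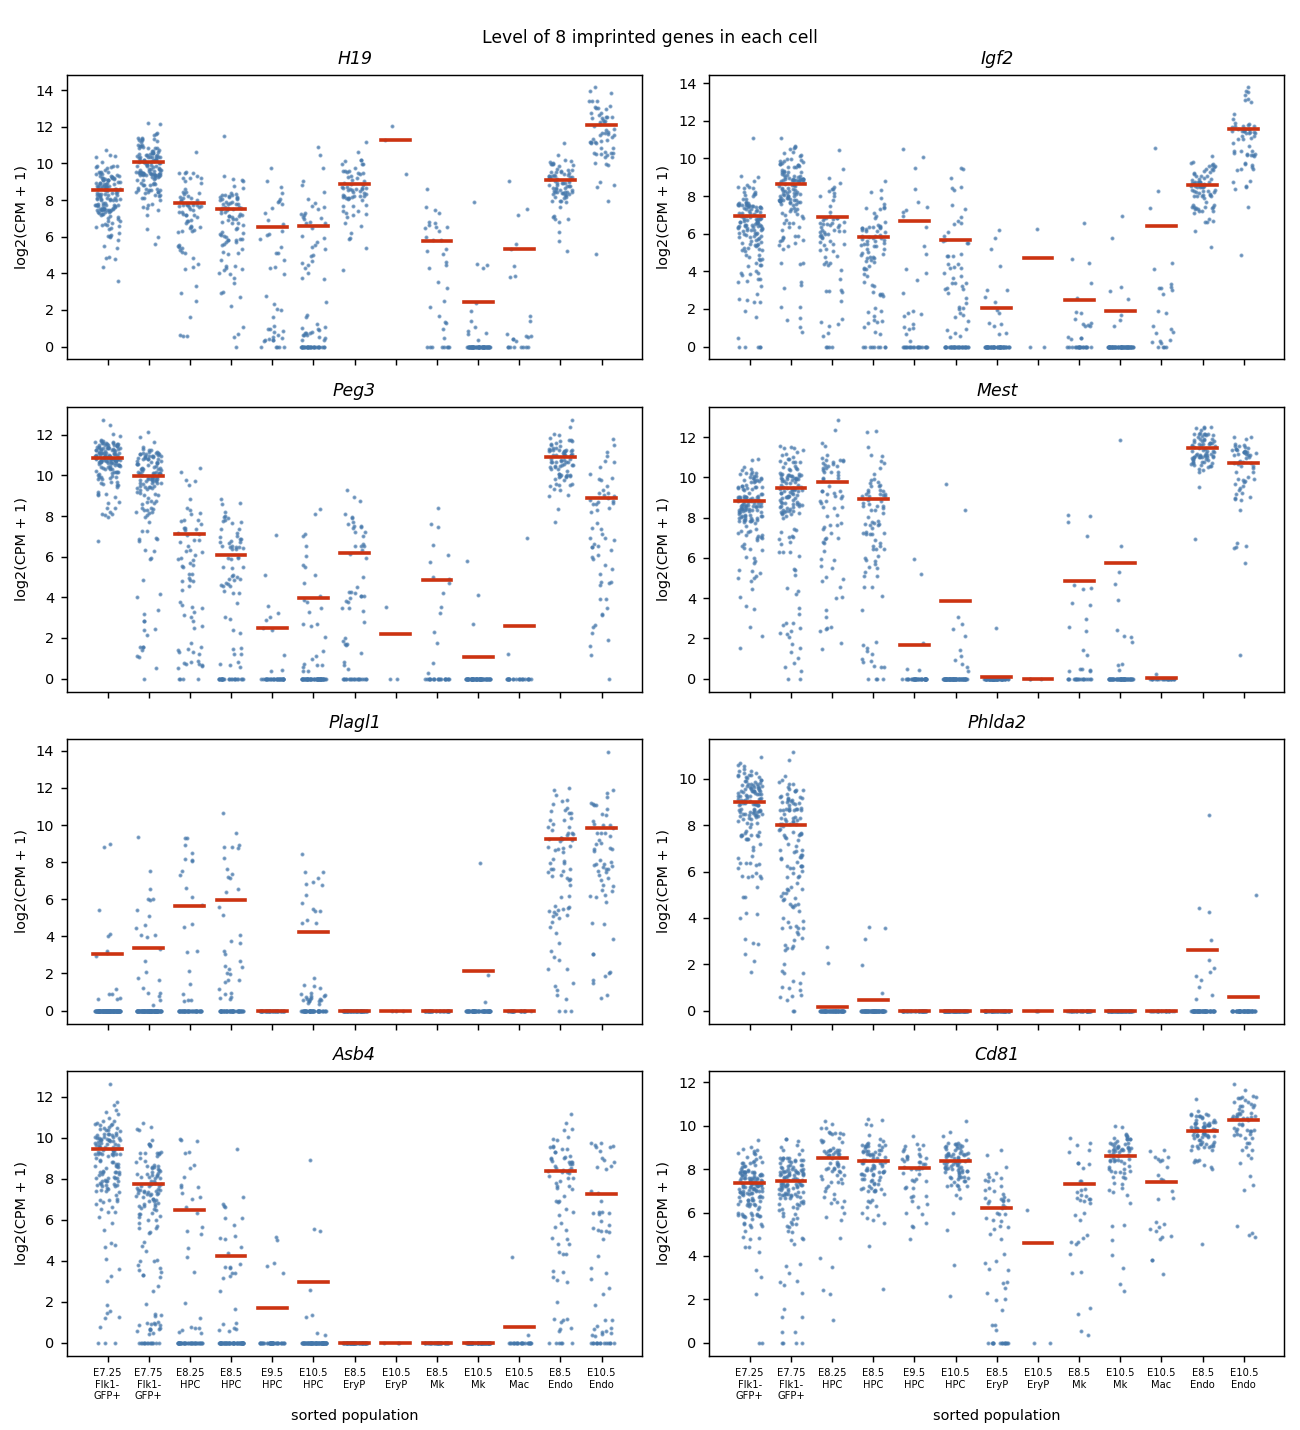
Levels in single cells, as log2(CPM + 1), of *H19*, *Igf2*, *Peg3*, *Mest*, *Plagl1*, *Phlda2*, *Asb4* and *Cd81* in the 13 populations. Each point is a cell and the red bar is log2(mean CPM + 1). *Phlda2* was found in every E7.25 and in 98.6% of E7.75 cells and in 1 of 61 E10.5 Endo cells, while the mean of *Cd81* was at least 71.9 CPM outside E10.5 EryP.

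The *Kcnq1* region on chromosome 7 held a gene with a sharp contrast between mesoderm and later cells. *Phlda2* (chr7:143501545-143503150, minus strand), which encodes a small membrane-binding protein known for limiting placental growth and is maternally expressed, had a mean of 519.9 CPM in E7.25 mesoderm (lowest 2.20, median 473, highest 1993) and 259.6 CPM in E7.75 mesoderm (lowest 0, median 119.7, highest 2326). Every E7.25 cell and 98.6% of E7.75 cells held it. In later cells it was found in 2 of 73 E8.25 HPC, 5 of 89 E8.5 HPC, 12 of 79 E8.5 Endo (5.18 CPM) and 1 of 61 E10.5 Endo cells. It was found in no cell of E9.5 HPC, E10.5 HPC, EryP, Mk or Mac, and 0 of 87 E10.5 HPC allows a share of up to 3.45%. Of 7 trophoblast markers, 3 are in the table. They summed to a median of 130.1 CPM at E7.25, 159.2 CPM at E7.75 and 21.9 CPM in E8.5 Endo, and 1 of them was found in no mesodermal cell. *Krt7* was the one that was absent. Of 9 visceral endoderm markers 3 are in the table, with a summed median of 0 CPM at both stages. The 3 trophoblast markers were found in a mean of 55.3% of E7.25 and 46.9% of E7.75 cells, with *Krt7* at 0. Whether these markers came from other cell types or from the mesoderm itself was not tested. Any part of other cell types in the level of *Phlda2* was not tested either. E7 cells were freed with trypsin and later cells with collagenase and dispase, and this too cannot be told apart from stage.

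*Cdkn1c*, a maternally expressed inhibitor of cyclin-dependent kinases (chr7:143458339-143461050, minus strand), was present in most mesodermal and endothelial cells. Its mean was 47.3 CPM at E7.25 (median 32.1), 122.9 CPM at E7.75 (median 51.3), 62.4 CPM in E8.5 Endo (median 21.0) and 387 CPM in E10.5 Endo (median 78.9, highest 6565). In HPC it was found in 38 of 73, 50 of 89, 12 of 46 and 36 of 87 cells from E8.25 to E10.5. In E10.5 Mk the mean of 16.3 CPM came from 3 of 73 cells. Exons of *Cdkn1c* share 625 bases with an antisense RNA (*Gm44732*), and the reads of the pair cannot be told apart without strand.

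*Kcnq1ot1*, the paternally expressed RNA that silences genes of the region in cis, was broad. Its mean lay between 258 and 495 CPM in the 12 populations other than E10.5 EryP. *Cd81*, a tetraspanin gene of the same region that is imprinted in placenta, had means of 163.3 and 174.7 CPM in mesoderm, between 262 and 362 CPM in HPC, 866 CPM in E8.5 Endo, 1252 CPM in E10.5 Endo and 71.9 CPM in E8.5 EryP. *Tssc4* lay between 6.14 and 30.0 CPM outside E10.5 EryP. *Ascl2*, a transcription factor of the trophoblast, did not exceed 2.89 CPM there, while 1 of the 3 E10.5 EryP cells raised the mean of that population to 13.8 CPM.

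Among the remaining genes, *Slc38a4*, an amino acid transporter, had means of 433, 375, 386 and 334 CPM in E7.25, E7.75, E8.5 Endo and E10.5 Endo, and of 185.5, 163.1, 19.5 and 22.6 CPM in HPC from E8.25 to E10.5. *Snrpn*, which encodes a splicing protein, was lower in endothelium than in mesoderm. It was at 183.5 and 185.6 CPM in mesoderm, 67.2 CPM in E8.5 Endo and 17.8 CPM in E10.5 Endo, and at 101.4 CPM in E8.5 EryP and 79.5 CPM in E8.5 Mk. *Ndn*, which encodes a growth-restraining nuclear protein, was highest in E8.5 Endo at 152.97 CPM.

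Other members, *Ube3a*, *Commd1*, *Copg2*, *Impact* and *Mcts2*, were broad. Outside E10.5 EryP, *Ube3a*, imprinted in neurons, lay between 167.1 and 422 CPM, *Commd1*, imprinted in brain, between 34.6 and 81.1 CPM, and *Copg2*, of vesicle coats, between 14.9 and 65.2 CPM. *Impact*, a regulator of translation, was highest at E7.75 (894 CPM) and lowest in Mac (116.02 CPM). *Mcts2*, a retrogene for a translation factor, lay between 27.1 and 49.7 CPM except in Mac and E10.5 EryP, and the top 10% of the 25 Mac carried 94.36% of its sum there, at a mean of 95.3 CPM. *Zdbf2*, known for growth after birth, was not broad, and outside E10.5 EryP its mean ran from 0.975 CPM in Mac to 47.6 CPM in E7.25 mesoderm. *Zrsr1*, a splicing retrogene in an intron of *Commd1*, did not exceed 5.83 CPM outside E10.5 EryP, and both share 412 exon bases.

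The first question was how imprinted genes differ between mesoderm and the first endothelium and HPC. In E8.5 Endo over E7.25 mesoderm, which shared a flow cell, 28 genes were compared, and 9 were higher and 3 lower past 2-fold (42.86%, against 33.6% of all genes, 20.8% higher and 12.8% lower). *Plagl1* (6.19), *Mest* (2.64), *Cd81* (2.40), *Ndn* (2.12), *Igf2* (1.62), *Rian* (1.38), *Meg3* (1.08), *Copg2* (1.02) and *Igf2r* (1.01) were higher, with log2 ratios in parentheses. *Phlda2* (-6.40), *Snrpn* (-1.44) and *Asb4* (-1.06) were lower. The median was 0.42, against 0.01 over all genes compared. In E8.25 HPC over E7.25, 2 of 28 were higher and 11 lower (46.43%, against 24.1% of all genes, 13.6% higher). Of the 9230 genes compared there in all, 971 were lower past 2-fold. *Plagl1* (2.62) and *Cd81* (1.14) were higher, and *Phlda2* (-8.86), *Peg3* (-3.77), *Usp29* (-3.33), *Meg3* (-2.99), *Asb4* (-2.94) and *Peg10* (-2.82) were lowest. *Plagl1* and *Cd81* were thus higher, and *Phlda2*, *Asb4* and *Snrpn* lower, in both, which share the E7.25 cells. In these comparisons 2 and 4 genes reached 10 CPM in 1 population only, and so were compared because of their level there.

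Against E7.75, on the other flow cell, 4 of 31 genes were higher and 6 lower in E8.5 Endo (32.26%, against 33% of all genes, 20.3% higher and 12.8% lower). *Plagl1* (5.84), *Cd81* (2.30), *Mest* (2.02) and *Ndn* (1.18) were higher, and *Phlda2* (-5.40) was lowest. In E8.25 HPC 2 of 31 were higher and 18 lower (64.52%, against 23.7% of all genes, 13% higher and 10.7% lower), with *Phlda2* (-7.86) lowest, followed by *Meg3* (-4.45) and *Dlk1* (-3.54). Here 5 and 7 genes reached 10 CPM in 1 population only.

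The second question was how each blood lineage differed from the endothelium of its stage. At E8.5, 27 genes were compared with Endo, and none was higher past 2-fold in HPC, Mk or EryP. With the highest and lowest 10% of cells left out, *Tssc4* (1.05) was higher past 2-fold in HPC, and *Tssc4* (1.55) and *Mcts2* (1.08) in Mk. In HPC 16 were lower (59.26%, against 28.3% of all genes, 10.4% higher and 17.9% lower). In Mk 19 were lower (70.37%, against 39.5% of all genes, 16% higher and 23.5% lower), and in EryP 18 (66.67%, against 46.1% of all genes, 18.6% higher and 27.5% lower). The median was -1.53, against 0.03 over all genes compared, in HPC. It was -2.72 in Mk and -3.58 in EryP, against 0.06 and 0.05. In HPC the lowest were *Rian* (-5.29), *Meg3* (-4.99), *Peg3* (-4.81) and *Asb4* (-4.16). *Mest* was -2.53 in HPC, -6.65 in Mk and -11.38 in EryP. *Plagl1*, -3.26 in HPC, was not found in Mk or EryP. Set to a floor of 3 counts over the population, it was 24329-fold and 22434-fold lower there. Without molecular identifiers a molecule can give many reads, so these folds are not lower bounds. In EryP, *H19* (-0.18), *Grb10* (0.07) and *Snrpn* (0.59) were within 2-fold of endothelium. In HPC, Mk and EryP, 3, 9 and 12 of the genes reached 10 CPM in 1 population only.

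At E10.5, 28 genes were compared with Endo. In HPC 20 were lower and none higher (71.43%, against 50.8% of all genes, 20.4% higher and 30.4% lower). In Mk 21 were lower and 1 higher (78.57%, against 51.2% of all genes, 22% higher and 29.2% lower), and in Mac 25 were lower and 1 higher (92.86%, against 59.2% of all genes, 24.1% higher and 35.1% lower). The medians were -3.96, -3.34 and -5.10, against -0.15, -0.07 and -0.29. *Mest* (-6.85), *Igf2* (-5.89), *Plagl1* (-5.59), *H19* (-5.53) and *Igf2r* (-5.43) were far lower in HPC. *H19* (-9.72) and *Igf2* (-9.65) were low in Mk, and *Mest* (-10.72) in Mac. *Grb10*, found in none of the 25 Mac, was 7753-fold lower there by the same floor, which again gives no lower bound. The genes that were higher were *Tssc4* in Mk (1.01, and 0.96 with counts scaled to the cell total) and *Mcts2* in Mac (1.78, and 0.91 with that scaling). With the highest and lowest 10% of cells left out, ratios that came to lie past 2-fold on the higher side were those of *Mcts2* (2.06) and *Tssc4* (1.97) in HPC, of which 1 passed the 10 CPM minimum with these means, *Mcts2* (1.85) in Mk and *Kcnq1ot1* (1.37) in Mac, while *Mcts2* in Mac was 0.92. In HPC, Mk and Mac, 6, 11 and 17 of the genes reached 10 CPM in 1 population only. With the genes at 0 set to this floor, none of the medians of the 17 comparisons changed. In most of them no compared gene was at 0 in 1 population, and elsewhere the floor only moved ratios further in the same direction. The medians could therefore hardly change. The plot of lineages over endothelium shows *H19* and *Igf2* together at low ratios in E10.5 Mk and apart in E8.5 EryP.

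**Figure D4:**
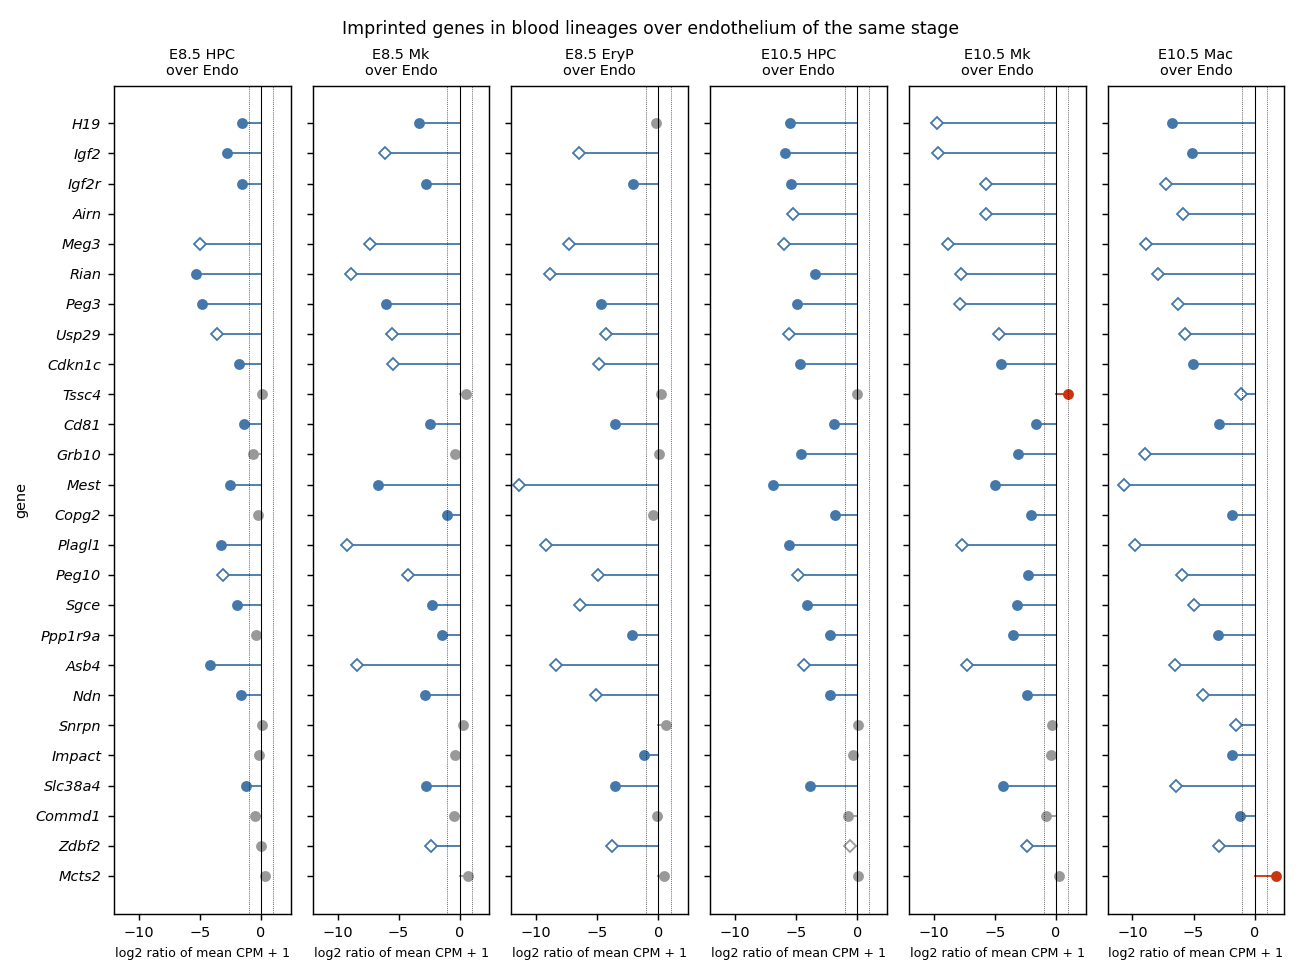
Log2 ratio of mean CPM + 1 of blood lineages over the endothelium of the same stage, for imprinted genes at 10 CPM or more in either population. Blue is lower and red higher past 2-fold, grey is not past 2-fold, and open diamonds mark genes at 10 CPM or more in 1 population only. At E8.5 no gene was higher past 2-fold than in Endo in any lineage with all cells, and at E10.5 *Tssc4* in Mk and *Mcts2* in Mac were.

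The third question was how levels changed with stage within a lineage. From E7.25 to E7.75, 9 of 30 genes were higher and 1 lower (33.33%, against 10.4% of all genes, 4.92% higher and 5.46% lower), and the median was 0.57, against 0.04 over all genes compared. Higher were *Mirg* (2.43), *Dlk1* (2.26), *Igf2r* (1.94), *Igf2* (1.71), *Rian* (1.62), *H19* (1.53), *Meg3* (1.46), *Cdkn1c* (1.36) and *Airn* (1.15), and *Asb4* (-1.71) was lower. With the highest and lowest 10% of cells left out, 6 of 26 were higher and 3 lower, and *Mirg* (0.58), *Meg3* (0.79), *Airn* (0.97) and *Cdkn1c* (0.98) were no longer past 2-fold. Shares over all genes were not counted for such means or for single lanes, here and below. With lane 7 of E7.75 alone, 14 were higher and 4 lower, 18 in all. With lane 8 alone 8 were higher and 1 lower, and *Mirg* (0.88) and *Airn* (0.79) were within 2-fold. The lanes differed, with 132.3 and 337 CPM of *Phlda2* and 1281 and 941 CPM of *H19* in lanes 7 and 8. *Mirg*, *Dlk1* and *Airn* reached 10 CPM at E7.75 only. Of the maternally expressed genes 6 of 15 were higher and 1 lower, and of the paternally expressed 3 of 15 were higher. These stages were sequenced on different flow cells.

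From E8.25 to E8.5, within 1 flow cell and 1 gate, HPC had 5 of 25 genes lower and none higher (20.0%, against 6.68% of all genes, 2.86% higher and 3.82% lower). The column names of both populations give E8.5, so this step rests on the stages of the sample titles. The 5 lower genes were *Asb4* (-2.28), *Rian* (-2.15), *Igf2* (-1.06), *Peg10* (-1.05) and *Peg3* (-1.01), and the median was -0.17, against 0.03 over all genes compared. With the highest and lowest 10% of the cells left out, 3 were lower past 2-fold, with *Mest* (-1.09) now among them and *Igf2* (-0.91) and *Peg3* (-0.58) not. From E8.5 to E9.5, 13 of 24 genes were lower and none higher (54.17%, against 24.6% of all genes, 11.5% higher and 13.1% lower), with a median of -1.16, against -0.03 over all genes compared. *Mest* (-7.30), *Peg3* (-3.60), *Slc38a4* (-3.00), *Asb4* (-2.54), *Grb10* (-1.76), *Igf2r* (-1.49), *Ndn* (-1.45), *Snrpn* (-1.32) and *H19* (-1.01) were among them. *Plagl1* and *Rian*, found in no E9.5 cell, were 1793-fold and 317-fold lower by the floor of 3 counts, which gives no lower bound. With counts scaled to the cell total *H19* was -0.81. In this comparison 7 genes reached 10 CPM at E8.5 only. The gate changed from CDH5+ to CDH5-CD45+ here, the endothelial markers went from 467 to 79.5 CPM, and the flow cell changed, and these cannot be told apart from stage.

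From E9.5 to E10.5, on 1 flow cell and by 1 gate, 5 of 22 genes were higher and 1 lower in HPC (27.27%, against 14.6% of all genes, 5.86% higher and 8.73% lower), with a median of 0.05, against -0.01 over all genes compared. *Rian* (4.44), *Plagl1* (4.22), *Mest* (2.22), *Peg3* (1.46) and *Cdkn1c* (1.40) were higher and *Igf2* (-1.01) was lower. With counts scaled to the cell total *Igf2* was -0.43, within 2-fold. The 5 that were higher reached 10 CPM at E10.5 only. These means came from few cells. The top 10% of the E10.5 cells carried 99.93% of the sum of *Rian*, 99.88% of *Mest*, 91.11% of *Peg3*, 85.7% of *Plagl1* and 77.52% of *Cdkn1c*. With the highest and lowest 10% of cells left out, no gene was past 2-fold of 14 compared, and *Rian* was 0.04, *Mest* 0.04, *Peg3* 0.89, *Cdkn1c* 0.91 and *Igf2* -0.80.

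In endothelium from E8.5 to E10.5, 9 of 28 genes were higher and 4 lower (46.43%, against 37.5% of all genes, 21.2% higher and 16.4% lower), with a median of 0.17, against 0.06 over all genes compared. *H19* (3.04), *Igf2* (2.97), *Airn* (2.87), *Cdkn1c* (2.61), *Igf2r* (2.06), *Sgce* (1.76), *Ppp1r9a* (1.57), *Grb10* (1.55) and *Meg3* (1.55) were higher, and *Peg3* (-2.02), *Snrpn* (-1.86), *Ndn* (-1.15) and *Asb4* (-1.12) were lower. The mean of *Ppp1r9a* was higher and its median lower. With the highest and lowest 10% of cells left out, 6 were higher and 9 lower of 27. Whether genes at large turned in the same way was not counted. *Sgce* (0.99), *Ppp1r9a* (0.66) and *Meg3* (0.51) were then within 2-fold. *Usp29* (-3.68, from 0.10), *Mcts2* (-1.77), *Zdbf2* (-1.66), *Rian* (-1.43), *Tssc4* (-1.40) and *Peg10* (-1.32, from 0.30) became lower past 2-fold. Of the maternally expressed genes 6 of 13 were higher and 1 lower, and of the paternally expressed 3 of 15 were higher and 3 lower. Flow cell and stage cannot be told apart here.

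In Mk from E8.5 to E10.5, 3 of 20 genes were higher and 5 lower (40.0%, against 29% of all genes, 16.3% higher and 12.7% lower). *Cdkn1c* (3.58), *Peg10* (2.22) and *Cd81* (1.33) were higher, and *Peg3* (-3.84), *H19* (-3.34), *Snrpn* (-2.45), *Slc38a4* (-1.75) and *Grb10* (-1.12) were lower. Without the highest and lowest 10% of cells 2 of 16 were higher and 8 lower. *Cdkn1c* then had a ratio of 0, *Mest* went from 0.92 to -3.00, and *Ndn* (-1.69), *Igf2r* (-1.39) and *Ube3a* (-1.03) were among those that became lower and *Sgce* (1.24) higher past 2-fold. The erythroid markers went from 25178 to 19.4 CPM between these populations, and *H19*, *Snrpn* and *Grb10* were among the genes that E8.5 EryP held near the level of endothelium. The part of this in the result was not tested. Between E8.5 EryP and the 3 E10.5 EryP cells, 4 of 18 genes were higher and 10 lower (77.78%, against 67.3% of all genes, 16% higher and 51.3% lower), and the median was -1.48, against -1.11 over all genes compared. *H19* was 2.37 and was above the E8.5 median in 3 of 3 cells.

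**Figure D5:**
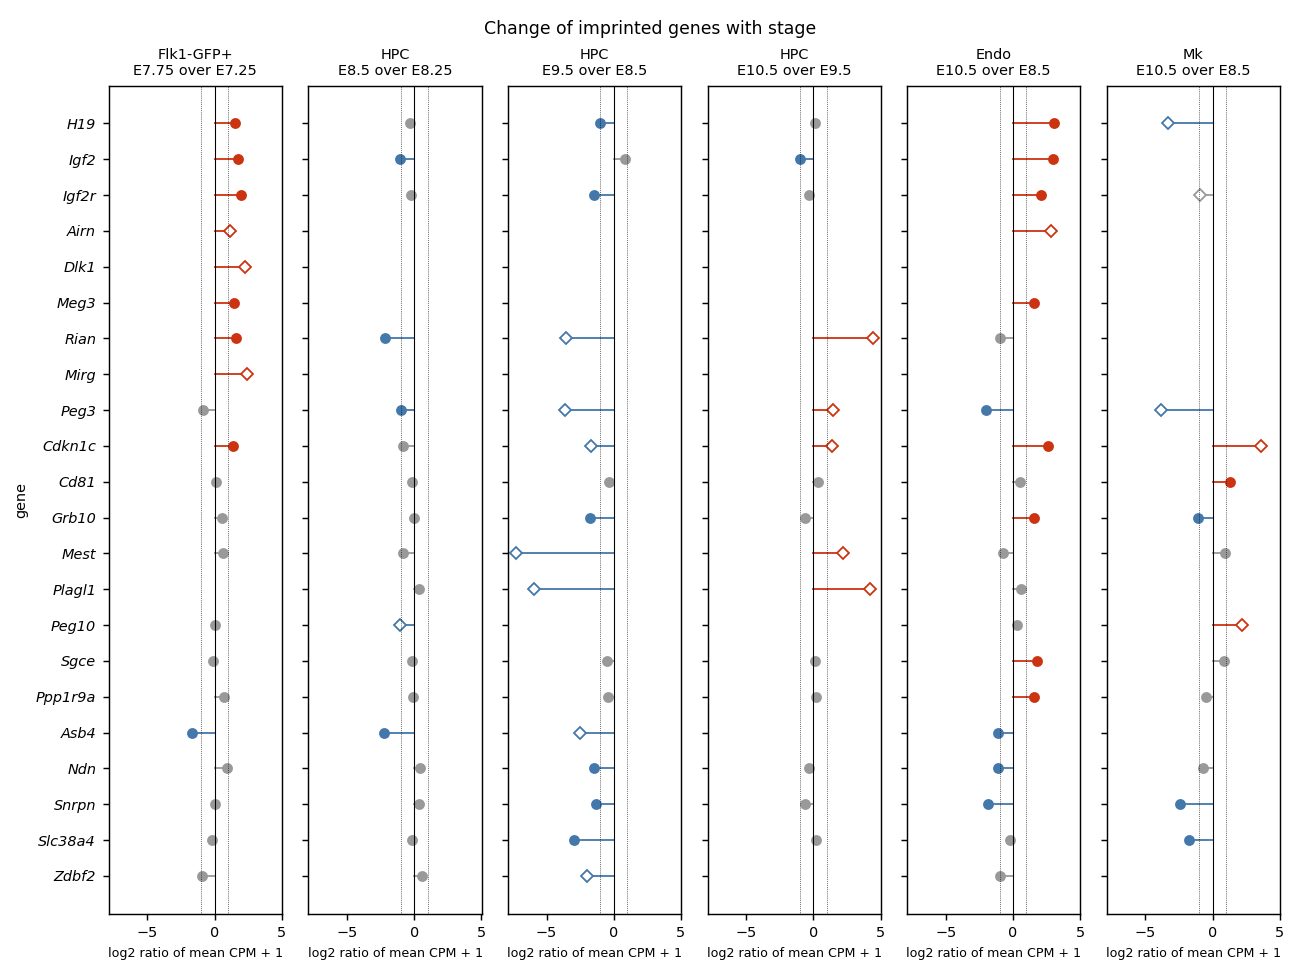
Log2 ratio of mean CPM + 1 between successive stages of *Flk1*-GFP+ mesoderm, HPC, Endo and Mk, for imprinted genes at 10 CPM or more in either population. Red is higher and blue lower past 2-fold at the later stage, grey is not past 2-fold, and open diamonds mark genes at 10 CPM or more in 1 population only. In HPC 13 of 24 genes were lower from E8.5 to E9.5, and *H19* was 3.04 in Endo and -3.34 in Mk.

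Neighbours of 1 region were then compared across cells, by Spearman's rho as a description. The cells of a population share sort, libraries and depth, and the counts of some pairs share exons. In the 140 cells of E7.75, rho was 0.78 for *H19* and *Igf2*, 0.77 for *Meg3* and *Rian*, 0.71 for *Cdkn1c* and *Phlda2*, 0.54 for *Peg3* and *Usp29* and 0.54 for *Peg10* and *Sgce*. Over 10 neighbour pairs the median was 0.48, against 0.11 over 409 pairs of genes from different regions, whose upper quartile was 0.35. *H19* and *Igf2*, usually expressed from opposite parental chromosomes, had 0.91 in lane 7 and 0.65 in lane 8. At E7.25 these medians were 0.31 and 0.08. In E8.5 Endo they were 0.22 and 0.06, and in E10.5 Endo 0.03 and 0.05, where *H19* and *Igf2* had 0.70. In E10.5 HPC the value of that pair was 0.77, with 23 of 87 cells at 0 for both. These were its highest values. In the other populations of 25 cells or more it lay between -0.25 in E8.5 EryP and 0.55 in E7.25 mesoderm, with 0.31 in E8.5 Endo and 0.34 in E8.5 HPC. The median over neighbour pairs was 0.001 in E8.5 HPC and 0.006 in E8.5 EryP, against 0.047 and 0.036 for different regions. *Mest* and *Copg2*, which share 912 exon bases on opposite strands, were at -0.01 at E7.75, and *Snrpn* and *Ube3a* at 0.00.

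Within E7.75 mesoderm, the levels followed markers of mesenchyme and mesoderm. With the summed mesenchyme markers rho was 0.70 for *Igf2*, 0.70 for *Mest*, 0.63 for *H19* and 0.61 for *Igf2r*. With the mesoderm markers it was 0.66 for *Peg3*, 0.63 for *Dlk1* and 0.61 for *Phlda2*. With the markers of haematopoietic progenitors it was -0.58 for *Peg3*, -0.47 for *Igf2* and -0.43 for *H19*, and by lane the last was -0.67 and -0.24. At E7.25, *H19* had 0.24 with the progenitor markers and -0.28 with the mesoderm markers, and *Phlda2* had -0.52 with the progenitor markers and -0.48 with the endothelial markers. The sign of *H19* with the progenitor markers thus differed between these stages.

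In HPC, some genes high in endothelium had positive correlations with the summed endothelial markers at E8.25 and E8.5. Spearman's correlation coefficient was 0.78 and 0.74 for *Mest*, 0.61 and 0.47 for *Igf2*, 0.50 and 0.45 for *Cd81*, 0.38 and 0.45 for *H19* and 0.38 and 0.41 for *Plagl1*. Values were lower at 1 or both stages for other genes, with -0.17 and -0.10 for *Grb10*, 0.14 and -0.27 for *Commd1*, 0.19 and -0.07 for *Copg2*, 0.04 and 0.02 for *Airn* and 0.36 and 0.03 for *Peg3*. At E9.5 and E10.5 it was -0.11 and 0.13 for *Mest*. The part of endothelial cells in these levels was not tested.

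Other genes of imprinting were counted from lists. Of 33 further imprinted genes, 24 are in the table. Relative to Endo, 0 of 16 were higher and 4 lower in E8.5 HPC (against 28.3% of all genes, 10.4% higher and 17.9% lower), and 2 of 19 were higher and 9 lower in E10.5 HPC (against 50.8% of all genes, 20.4% higher and 30.4% lower). *Slc22a3*, a transporter of the *Igf2r* region, had 55.5 CPM in E10.5 HPC (69 of 87 cells) and was found in 0 of 61 E10.5 Endo cells. *Kcnq1*, the potassium channel that overlaps *Kcnq1ot1*, was found in 17 of 61 E10.5 Endo cells and 0 of 87 E10.5 HPC.

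Of 18 genes that keep imprints or methylate DNA, 17 are in the table. *Zfp57*, whose product binds the motif shown above, had means of 72.1 and 61.1 CPM in mesoderm, 222 CPM in E8.5 Endo (77 of 79 cells) and 258 CPM in E10.5 Endo (50 of 61). In HPC it had 44.5, 32.5, 2.30 and 11.5 CPM from E8.25 to E10.5, and it was found in 1 of 66 E8.5 EryP cells and 0 of 25 Mac. Its cofactor *Trim28* was found in 25 of 25 Mac at 625 CPM and in 64 of 66 E8.5 EryP cells at 136.6 CPM. *Dnmt1*, the maintenance methyltransferase, was at 81.0 CPM in E7.25 mesoderm and 201 CPM in E8.5 Mk, its lowest and highest means. From E8.5 to E10.5 in Endo, 5 of 16 genes of the list were lower past 2-fold and 0 higher (against 37.5% of all genes, 21.2% higher and 16.4% lower), with *Dnmt3b* (-1.56), *Uhrf1* (-1.51), *Tet1* (-1.47), *Zfp445* (-1.19) and *Eed* (-1.01).

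Of 19 genes of IGF signalling other than the imprinted ones, 13 are in the table. *Igf1*, the other ligand, was at 3.92 and 22.7 CPM in mesoderm, 578 CPM in E8.25 HPC, 459.6 CPM in E8.5 HPC, 1468 CPM in E8.5 Endo and 489 CPM in E10.5 Endo. At E9.5 and E10.5 HPC held 36.9 and 45.9 CPM of it, and it was found in 0 of 66 E8.5 EryP cells. Between E8.5 and E10.5 Endo, *Igf1* was lower (-1.58) while *Igf2* was higher (2.97), and the binding proteins *Igfbp7* (4.93), *Igfbp3* (2.34) and *Igfbp5* (1.73) were higher. *Igf1r*, the receptor of both ligands, had its lowest mean in Mac (24.6 CPM) and its highest in E10.5 Mk (173.1 CPM). From E8.5 to E9.5 HPC, 4 of 9 genes were lower (against 24.6% of all genes, 11.5% higher and 13.1% lower), *Igfbp5* (-5.71), *Irs2* (-4.06), *Igf1* (-3.60) and *Igfbp4* (-1.83), and 0 were higher. Of the 5 parent or related genes of the imprinted retrogenes, all in the table, 2 of 5 were lower in the same step of HPC and 3 of 5 in E10.5 over E8.5 Endo, and none was higher in either (against 24.6% of all genes, 11.5% higher and 13.1% lower for HPC and against 37.5% of all genes, 21.2% higher and 16.4% lower for Endo).

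Over the 13 populations, the 3 E10.5 EryP cells among them, the genes of 12323 searched whose log2(mean CPM + 1) was most like that of a member were named by Pearson's r. They were *Cep164* (0.91), *Naa35* (0.90) and *Hspa12b* (0.90) for *H19*, and *Snn* (0.94), *Fam129b* (0.93) and *Jag1* (0.93) for *Igf2*. For *Dlk1* they were *Lrp2* (0.95), *Robo2* (0.93) and *Arl4d* (0.92), and for *Meg3* *B930095G15Rik* (0.99), *Gata6* (0.99) and *Large* (0.98). For *Peg3* they were *Tead1* (0.98), *Mageh1* (0.97) and *Sox11* (0.97), and for *Cdkn1c* *Map4k3* (0.96), *Obsl1* (0.95) and *Cep112* (0.95). The points are population means that share cells, runs and depth.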

How the data were processed

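Read counts per gene were deposited for every captured cell, made by the authors with Rsubread and featureCounts against GRCm38 and Ensembl release 84. The authors removed poor cells and rare genes with scater, and the deposited normalised table holds a signal, CPM, for which the authors scaled counts by scran size factors. From these, means over cells, shares of cells, ratios and correlations were computed with scipy 1.17.1, numpy 2.4.6 and pandas 2.3.3 under Python 3.11.15, and plots with matplotlib 3.10.9. All 17 comparisons were made over the whole table of genes. The genes and the lists were chosen with earlier results of these data known.

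Each cell is a library, and no source names the embryos, so no model was fitted. Ratios used a pseudocount of 1 and a minimum mean of 10 CPM. The step was tested on simulated data. No doublet caller was run, and capture sites had been imaged by the authors. Depth for thinning was 840000 counts. Positions and exon overlaps came from GENCODE M21 and promoters from RefSeq. Strand of counting is not given in the sources used here, so overlapping genes on opposite strands cannot be told apart. By the rule for named genes, every listed gene was accounted for, with values for those at 10 CPM or more in some population, the 3 genes most alike in pattern were named for *H19*, *Igf2*, *Dlk1*, *Meg3*, *Peg3* and *Cdkn1c*, and genes of other lists were named where past 2-fold. *Trim28*, *Dnmt1*, *Igf1r* and *Krt7* lie outside that rule and were chosen after their values were seen. Alternatives are described with their effects in the closing section.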

Additional observations from a re-analysis of the deposited data

Results flagged for a closer look

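*H19* changed in opposite directions between stages. Its log2 ratio of E10.5 over E8.5 was 3.04 in endothelium and -3.34 in megakaryocytes. *Grb10* did likewise, with 1.55 and -1.12. The difference between the lineages was not tested, since each population is 1 sample, and the cells labelled E8.5 Mk held erythroid markers.

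Outside the filtered tables, *Nap1l5* was found before filtering in 16 of the 1073 captured cells (1.491%, exact interval 0.8547 to 2.41). *Rasgrf1* was found in 5 of them (0.466%, interval 0.1515 to 1.084).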

How the results depend on the processing

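Alternatives were a pseudocount of 10, no minimum, a minimum of 50 CPM, counts scaled to the cell total, counts thinned to 840000 a cell, means without the highest and lowest 10% of cells, single lanes and 10 counts or more for a gene to be found. Of the counts of genes and shares, 110 stayed within 1.5 times and 14 moved. A count can stay while its genes change. Shares over all genes were not counted under the alternatives, so these counts of imprinted genes have no background. Of the ratios of single genes 2289 stayed, 315 moved and 2 turned sign over the alternatives. No minimum and a minimum of 50 CPM cannot change a ratio. Each gave 450 of the ratios that stayed, and these say nothing on stability. Without extreme cells 291 stayed, 2 turned sign and the rest moved, and with a pseudocount of 10, 340 stayed and 110 moved. Without extreme cells Endo went from 9 higher and 4 lower to 6 higher and 9 lower. A minimum of 50 CPM gave 7 in place of 13 genes past 2-fold for E9.5 over E8.5 HPC, 5 in place of 8 for Mk, 6 in place of 14 for EryP and 1 in place of 6 for E10.5 over E9.5 HPC, since fewer genes were compared. For the last, a pseudocount of 10 gave 2, no minimum 11 and the mean without extreme cells 0. For E8.5 over E8.25 HPC (5), the pseudocount of 10 gave 2 and the mean without extreme cells 3. Lane 7 of E7.75 alone gave 18 in place of 10, and no minimum gave 20 in place of 13 for E8.25 HPC over E7.25. Genes in 50% of cells fell at 10 counts to 10 from 16 in E9.5 HPC, 8 from 15 in E10.5 HPC and 6 from 13 in E10.5 Mk. Without extreme cells the ratio of *Cdkn1c* in Mk was 0 and that of *Tssc4* in Mac over Endo 0.35. The cause was not tested beyond the number of genes or cells. No paired analysis was possible because cell numbers only name cells. Depth limits rare genes, and the upper limits of shares do not measure this, since they are set by the number of cells alone.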
